A study of Mus musculus with 18 samples.

Results

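A set of 10 genes of fatty acid synthesis and its control was followed across mouse lung epithelial cells sorted by Wnt reporter activity: Acly, Me1, Acaca, Fasn, Elovl6, Scd1, Fads1, Fads2, Srebf1 and Acoxl. They were chosen by name, with earlier results of these data known. Each was read from the probe set that carries its symbol alone (the brightest on average where there were several). A value was obtained for 9 of the 10, among 30142 genes with such a probe set. Srebf1 shares its probe set with the microRNA gene Mir6922 and so has no value of its own here.

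Fatty acid synthesis starts in the cytosol from citrate. ATP citrate lyase (Acly) splits citrate into acetyl-CoA, malic enzyme (Me1) supplies NADPH, acetyl-CoA carboxylase (Acaca) makes malonyl-CoA, and fatty acid synthase (Fasn) joins these units into palmitate. Elongases such as Elovl6 and desaturases such as Scd1, Fads1 and Fads2 then lengthen the chain or put in double bonds, and the transcription factor encoded by Srebf1 switches on many of these genes. In the lung the pathway is best known in alveolar type II cells, which make the phospholipids of surfactant, where palmitate is a main acyl chain. Acoxl is named for its likeness to the peroxisomal acyl-CoA oxidases, which break fatty acids down. Its name thus points to oxidation and not to synthesis.

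The cells came from TCF/Lef:H2B/GFP mice, in which sites bound by TCF/Lef factors, the partners of beta-catenin, drive a green histone fusion protein. The mice of every group carried this reporter, were 8 to 12 weeks old, and each array held RNA from a pool of 3 to 4 animals. Wnthigh, Wntlow and Wntnegative cells were the live (DAPI-) EpCAM+ cells with high, low and no GFP, from lungs digested together with trachea and bronchi after removal of CD31+ and CD45+ cells. Each group had 6 arrays, from experiments 2, 4 and 5 (Wnthigh) or 3, 4 and 5 (Wntlow and Wntnegative), and from experiments 7, 8 and 9 in all groups. The reporter sorts cells by a signal and not by type, so the groups can differ in cell makeup. With sorted pools, fewer cells of a type and less RNA per cell cannot be told apart.

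Values are the deposited log2 intensities, so a difference of 1 is a doubling of signal on the array. Experiments 2 to 5 and 7 to 9 stood on different scales, with array medians of 5.11 to 5.18 and 3.86 to 3.97, and were therefore compared within each run or with the run as a term. The level of genes taken as silent, the 95th percentile of 1526 olfactory and vomeronasal receptor genes, lay at 4.65 to 4.89 in experiments 2 to 5 and at 3.67 to 4.00 in experiments 7 to 9. No Plin1, Adipoq, Lep or Cidec signal exceeded it on any array, so the defining adipocyte markers were at background, as were all 4 endothelial markers. Epcam averaged 10.78 ± 0.93 in Wnthigh, 10.75 ± 0.96 in Wntlow and 10.71 ± 1.02 in Wntnegative cells (SD, n = 6 each). Here and below, each SD over 6 arrays pools both runs and so includes the shift in scale between them. Among 11 alveolar type II markers, 10 were lower in Wnthigh than in Wntnegative cells, while Sftpc read close to the top of the scale on every array and its difference cannot be judged. All 6 measured ciliated markers and all 4 measured club cell markers were higher in that comparison. Of all genes 24.6% were lower and 15.6% higher in it.

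The stretch around a start of transcription is where sterol response, CCAAT and GC box factors are known to bind at lipogenic genes. Windows from 250 bases before to 50 bases after an annotated start (RefSeq, GRCm38.p6) were at hand for 8 of the 10 genes, 11 windows in all, with none for Fads1 and Scd1. Fasn and Acoxl are printed because they held the most CCAAT matches, Fads2 because it differed strongly between the groups with no CCAAT match, and Elovl6 because it was the member that differed in the opposite direction. Capitals mark CCAAT or its reverse complement ATTGG. All are written 5' to 3' along the gene's own strand. The windows are Fasn at chr11:120824498-120824797 (minus strand), Acoxl at chr2:127854378-127854677 (plus strand), Fads2 at chr19:10101454-10101753 (minus strand) and Elovl6 at chr3:129532136-129532435 (plus strand).
Fasn: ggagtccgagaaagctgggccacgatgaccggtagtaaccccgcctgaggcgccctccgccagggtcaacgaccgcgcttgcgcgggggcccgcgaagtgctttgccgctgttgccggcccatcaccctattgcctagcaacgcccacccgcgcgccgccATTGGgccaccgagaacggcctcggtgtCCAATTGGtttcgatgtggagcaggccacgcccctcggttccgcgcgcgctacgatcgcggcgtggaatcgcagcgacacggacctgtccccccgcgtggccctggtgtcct
Acoxl: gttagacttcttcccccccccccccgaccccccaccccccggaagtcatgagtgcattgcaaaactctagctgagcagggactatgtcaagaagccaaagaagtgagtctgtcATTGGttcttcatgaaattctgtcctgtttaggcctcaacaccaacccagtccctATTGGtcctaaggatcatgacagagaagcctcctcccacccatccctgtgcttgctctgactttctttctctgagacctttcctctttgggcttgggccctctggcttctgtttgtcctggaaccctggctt
Fads2: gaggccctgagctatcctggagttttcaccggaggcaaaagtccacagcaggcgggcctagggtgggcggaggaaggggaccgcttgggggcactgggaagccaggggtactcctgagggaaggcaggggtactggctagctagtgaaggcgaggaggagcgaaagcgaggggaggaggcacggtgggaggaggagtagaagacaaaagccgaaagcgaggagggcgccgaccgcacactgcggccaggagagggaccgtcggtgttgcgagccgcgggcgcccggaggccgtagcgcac
Elovl6: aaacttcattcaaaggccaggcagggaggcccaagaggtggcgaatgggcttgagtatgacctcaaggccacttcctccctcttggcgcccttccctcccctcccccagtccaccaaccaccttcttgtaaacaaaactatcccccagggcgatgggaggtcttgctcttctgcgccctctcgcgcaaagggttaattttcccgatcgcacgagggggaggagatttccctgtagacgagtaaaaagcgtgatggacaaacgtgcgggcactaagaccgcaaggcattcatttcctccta

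Both strands were searched for 4 motifs. CCAAT was found in 6 of the 11 windows, belonging to 5 genes (Fasn, Acoxl, Acly, Me1 and Srebf1), and in 37.4% of 32851 mouse windows of the same length. Fasn held 3 matches, at -90, -62 and -59 from the start, of which the last 2 overlap as CCAATTGG. GGGCGG (the GC box) was found in 5 of the 11 windows, belonging to Acly, Me1, Fads2 and Srebf1, and in 35.7% of all windows. TCACNCCAC (a sterol response element) and CACGTG (an E-box) were found in none of the 11, against 1.24% and 7.15% of all windows. Such matches describe letters in these windows and say nothing of binding in these cells. Sites spelled with other letters were not counted.

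The comparison of Wnthigh with Wntnegative cells asks how the genes stood where the reporter was strongest. Of the 9 measured genes, 8 were lower in Wnthigh cells and 1, Elovl6, was higher. Acoxl and Fads2 had the largest differences, and Me1 the smallest among the lower genes. Of all 30142 genes, 24.6% were lower and 15.6% higher by the same test (limma, run as a term, Benjamini-Hochberg adjusted p under 0.05). The 8 were all lower by at least 1, against 7.28% of all genes, and none was higher by as much, against 6.62%. In both runs these 8 lay wholly below Wntnegative cells (17.8% of all genes did) and Elovl6 wholly above (12.9% did). The median over the 9 was -4.42, against -0.05 over all genes. The 8 lower genes passed in all 20 alternative settings.

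**Figure D1:**
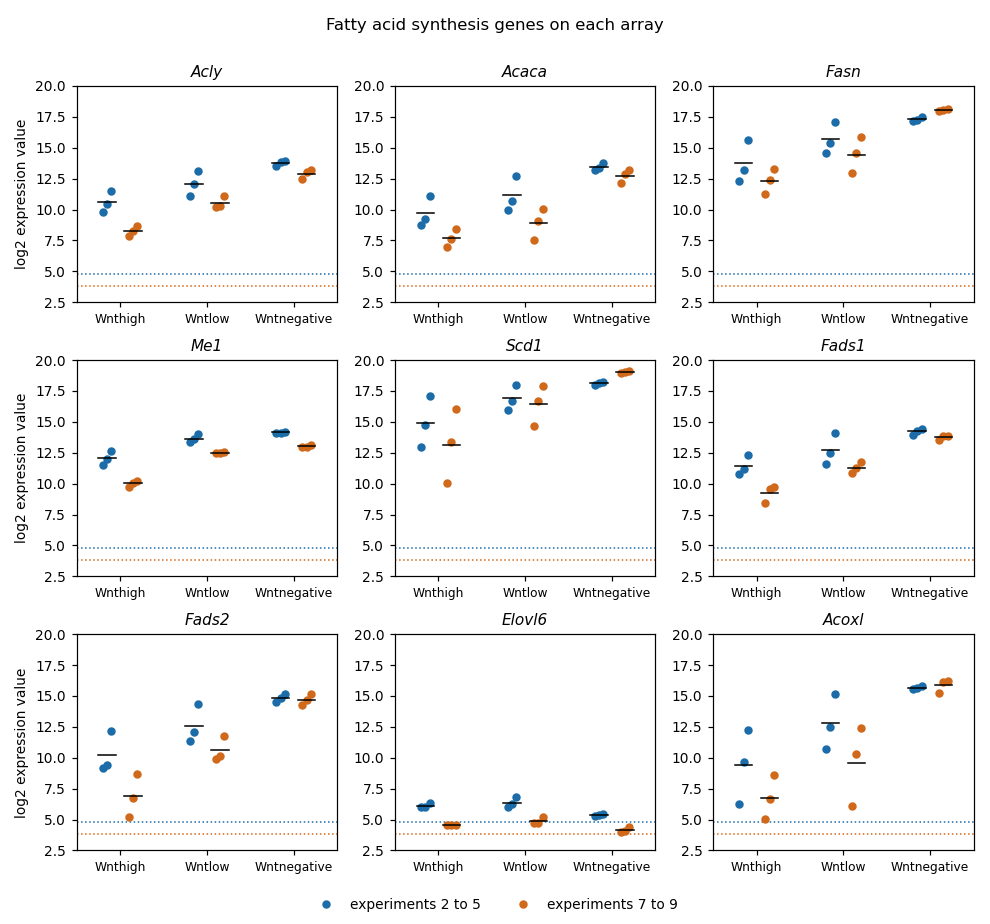
Deposited log2 expression value (vertical axis) of the 9 measured genes on each of the 18 arrays (points), by group and run, with black bars for the mean of the 3 arrays and dotted lines for the mean silent level of each run. Of the 9, 8 genes sit lower on every Wnthigh array than on every Wntnegative array of the same run, and Elovl6 sits higher.

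Among the enzymes that supply the pathway, Acly read 9.80, 11.48 and 10.45 on the Wnthigh arrays of experiments 2, 4 and 5, against 13.54, 13.87 and 13.89 on the Wntnegative arrays of experiments 3, 4 and 5. In experiments 7, 8 and 9 it read 7.85, 8.25 and 8.69 in Wnthigh cells and 12.48, 13.16 and 13.04 in Wntnegative cells. The groups were apart in both runs, and the difference was -3.91 (SE 0.36, limma adjusted p = 2.42e-07). Me1 read 11.51, 12.68 and 11.96 in Wnthigh cells, against 14.18, 14.12 and 14.12 in Wntnegative cells, in experiments 2 to 5. The values of experiments 7, 8 and 9 were 9.77, 10.06 and 10.24 in Wnthigh cells and 12.98, 13.16 and 12.95 in Wntnegative cells. No array of one group reached the other in its run. The standard error was the smallest among the lower genes, and a difference of -2.55 (SE 0.20) gave the smallest adjusted p of the 9 (4.08e-08, limma).

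The enzymes of the central steps were also lower. Acaca averaged 8.68 ± 1.42 in Wnthigh and 13.10 ± 0.54 in Wntnegative cells (SD, n = 6 each), a difference of -4.42 (SE 0.55, limma adjusted p = 5.85e-06). Fasn read 12.33, 15.66 and 13.22 in Wnthigh cells of experiments 2, 4 and 5, against 17.23, 17.45 and 17.18 in Wntnegative cells. In experiments 7, 8 and 9 the readings were 11.28, 12.36 and 13.32 in Wnthigh and 17.96, 18.11 and 18.09 in Wntnegative cells. Fasn thus remained far above the silent level in Wnthigh cells although it fell by 4.64 (SE 0.65, limma adjusted p = 2.13e-05). On all 6 Wntnegative arrays Fasn and Scd1 lay among the brightest 1% of genes, where an array can saturate, so these differences may be lower limits in size.

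The desaturases among the measured members were all lower. Fads2, the delta-6 desaturase that opens the route to long polyunsaturated fatty acids, read 9.20, 12.17 and 9.39 in Wnthigh cells of experiments 2, 4 and 5, and 14.51, 15.20 and 14.81 in Wntnegative cells. In experiments 7, 8 and 9 it read 5.24, 6.75 and 8.72 in Wnthigh cells and 14.28, 14.67 and 15.13 in Wntnegative cells. Its difference of -6.19 (SE 0.76, limma adjusted p = 4.93e-06) was matched in direction by a second probe set, at -5.51. Fads1, the delta-5 desaturase of the same route, averaged 10.35 ± 1.38 in Wnthigh and 13.98 ± 0.32 in Wntnegative cells (SD, n = 6 each) and fell by 3.64 (SE 0.41, limma adjusted p = 2.23e-06). Scd1, which turns saturated into monounsaturated fatty acids, spread over 10.07 to 17.10 in Wnthigh cells (median 14.06) and over 17.98 to 19.08 in Wntnegative cells (median 18.61). Its difference was -4.53 (SE 0.92, limma adjusted p = 0.000714), and a second Scd1 probe set, well below the top of the scale, gave -5.04.

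Elovl6, which lengthens palmitate to stearate, went the other way and stayed at low signal. It read 6.31, 6.05 and 6.05 in Wnthigh cells of experiments 2, 4 and 5, and 5.34, 5.29 and 5.49 in Wntnegative cells. In experiments 7, 8 and 9 the values were 4.60, 4.56 and 4.56 in Wnthigh and 4.39, 3.98 and 4.06 in Wntnegative cells. All Wnthigh arrays were above all Wntnegative arrays of their run, and the gene exceeded the silent level on every array, by 0.76 to 1.55 in Wnthigh and 0.13 to 0.60 in Wntnegative cells. The difference was 0.60 (SE 0.12, limma adjusted p = 0.000828). It did not pass in experiments 7 to 9 alone (adjusted p = 0.073) or without the run term (0.851).

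Acoxl had the widest span of the 9. It read 6.27, 12.24 and 9.67 in Wnthigh cells of experiments 2, 4 and 5, and 15.60, 15.62 and 15.83 in Wntnegative cells. In experiments 7, 8 and 9 it read 5.07, 6.70 and 8.58 in Wnthigh cells and 15.24, 16.14 and 16.20 in Wntnegative cells. The Wntnegative arrays stood within 1.0 of one another, while the Wnthigh arrays differed by several units. The difference was -7.68 (SE 1.18, limma adjusted p = 5.27e-05), at -6.29 in experiments 2 to 5 and -9.07 in experiments 7 to 9. For all 8 lower genes the difference was larger in size in experiments 7 to 9, with medians over the 9 genes of -3.19 in experiments 2 to 5 and -5.07 in experiments 7 to 9. The runs stood on different scales, and whether this holds for genes at large was not tested.

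**Figure D2:**
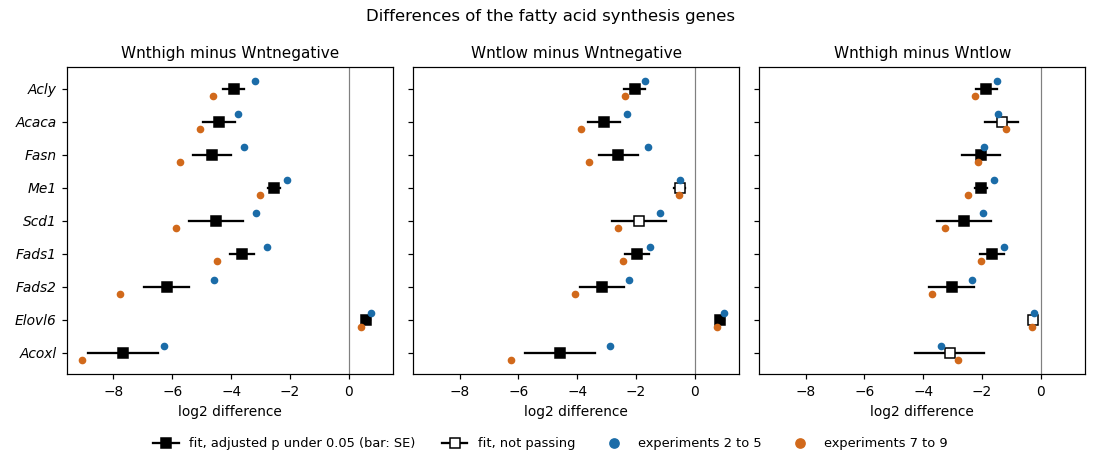
Log2 difference (horizontal axis) of each of the 9 genes in the 3 comparisons: squares give the fit with its SE, filled where the adjusted p is under 0.05, and circles the difference within each run. The Wnthigh minus Wntnegative squares run between -7.68 for Acoxl and 0.60 for Elovl6.

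Wntlow cells were compared with Wntnegative cells to see how the genes stood at low reporter activity. Of the 9 genes, 6 were lower in Wntlow cells, namely Acoxl, Fads2, Acaca, Fasn, Acly and Fads1, and Elovl6 was higher. Scd1 and Me1 did not pass the test. Among all genes 13.2% were lower and 12.3% higher. The 6 were lower by at least 1, against 3.33% of all genes, and none was higher by as much, against 4.33%. The Wntnegative arrays are the same as those set against Wnthigh cells, so the comparisons share them. The median over the 9 was -2.05, against -0.03 over all genes.

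Acaca had a difference of -3.09 (SE 0.55, limma adjusted p = 0.000558), with 9.99, 12.75 and 10.73 in Wntlow cells of experiments 3, 4 and 5, against 13.35, 13.80 and 13.23 in Wntnegative cells. It read 7.53, 9.06 and 10.05 in Wntlow and 12.17, 12.90 and 13.18 in Wntnegative cells of experiments 7, 8 and 9. No Wntlow array reached a Wntnegative array of its run, yet the Wntlow array of experiment 4 came within 1 unit. Fasn averaged 15.07 ± 1.40 in Wntlow and 17.67 ± 0.43 in Wntnegative cells (SD, n = 6 each), a difference of -2.60 (SE 0.65, limma adjusted p = 0.00713). Acly differed by -2.05 (SE 0.36, limma adjusted p = 0.000541). Without the run term 3 of the 6 remained (Acaca, Fasn and Acoxl). In experiments 2 to 5 alone none of the 9 was lower (limma, 2 at an unadjusted p under 0.05), and in experiments 7 to 9 alone 7 were.

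Among the desaturases in Wntlow cells, Fads2 fell by 3.16 on the log2 scale at 11.61 ± 1.60, against 14.77 ± 0.36 in Wntnegative cells (SD, n = 6 each; limma adjusted p = 0.00529). Fads1 fell by 1.97, at 12.01 ± 1.14 in Wntlow and 13.98 ± 0.32 in Wntnegative cells (limma adjusted p = 0.00205). Scd1 differed by -1.90 (SE 0.92, limma adjusted p = 0.152), with 16.00, 18.02 and 16.72 in Wntlow cells of experiments 3, 4 and 5 and 17.98, 18.23 and 18.12 in Wntnegative cells. The Wntlow array of experiment 4 there exceeded the lowest Wntnegative array. The second Scd1 probe set, below the top of the scale, gave -2.75, and the mean over both gave -2.33 (limma adjusted p = 0.0687). Acoxl averaged 11.19 ± 3.04 in Wntlow and 15.77 ± 0.36 in Wntnegative cells (SD, n = 6 each), a difference of -4.58 (SE 1.18, limma adjusted p = 0.00857).

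Me1 and Elovl6 departed from the rest in Wntlow cells. Me1 read 13.36, 14.00 and 13.58 in Wntlow cells of experiments 3, 4 and 5, against 14.18, 14.12 and 14.12 in Wntnegative cells, and 12.56, 12.45 and 12.45 against 12.98, 13.16 and 12.95 in experiments 7, 8 and 9. Every Wntlow array was below every Wntnegative array of its run, but the difference of -0.52 (SE 0.20) had a limma adjusted p of 0.073. It passed in 5 of 20 alternative settings, with adjusted p of 0.00278 to 1 over all of them (limma). Elovl6 read 6.81, 6.05 and 6.27 in Wntlow cells of experiments 3, 4 and 5, and 4.75, 5.18 and 4.72 in experiments 7, 8 and 9. These values lie above all Wntnegative arrays of the same run, by a fitted 0.87 (SE 0.12, limma adjusted p = 8.84e-05). Groups were apart in both runs for 6 genes on the lower side, against 6.57% of all genes. Those 6 were Acoxl, Me1, Fads2, Fasn, Acly and Acaca. Fads1 overlapped in experiments 2 to 5, with 14.08 in Wntlow cells of experiment 4 and 13.97 in Wntnegative cells of experiment 3. Elovl6 was apart in both runs on the higher side, against 8.98% of all genes.

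Wnthigh cells were also set against Wntlow cells, the comparison within reporter-positive cells. Of the 9 genes, 6 were lower in Wnthigh cells, Fads2, Scd1, Fasn, Me1, Acly and Fads1, and none was higher. Among all genes, 16.4% were lower and 11.4% higher. The 6 were lower by at least 1, against 4.83% of all genes (4.27% were higher by as much). Me1 alone had no overlap between the groups in either run, against 10.3% of all genes lower and 8.04% higher without overlap. It fell by 2.03 (SE 0.20, limma adjusted p = 3.64e-06).

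Acly fell by 1.86 in Wnthigh cells, at 9.42 ± 1.40, against 11.28 ± 1.11 in Wntlow cells (SD, n = 6 each; limma adjusted p = 0.000801). Fads2 differed by -3.03 (SE 0.76, limma adjusted p = 0.00572), apart in experiments 7 to 9 and overlapping in experiments 2 to 5. The Wnthigh array of experiment 4, at 12.17, exceeded the Wntlow arrays of experiments 3 and 5, at 11.36 and 12.09. Fads1 differed by -1.66 (SE 0.41, limma adjusted p = 0.00552). Fasn, at -2.04 (SE 0.65, limma adjusted p = 0.0274), and Scd1, at -2.62 (SE 0.92, limma adjusted p = 0.043), overlapped in both runs. Fasn lost its call without experiment 2, 5, 8 or 9 (adjusted p up to 0.0876), and Scd1 without 2, 3, 5 or 8 (up to 0.141). Of 20 alternative settings Fasn passed in 11 and Scd1 in 8. The mean over both Scd1 probe sets gave -2.45 (limma adjusted p = 0.0517). In experiments 2 to 5 alone 1 gene passed (Me1), in experiments 7 to 9 alone 4 did, and without the run term 1 did.

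Acoxl differed by -3.10 (SE 1.18, limma adjusted p = 0.0638), Acaca by -1.34 (SE 0.55, limma adjusted p = 0.0888) and Elovl6 by -0.27 (SE 0.12, limma adjusted p = 0.121). None of these passed, though Acoxl did without experiment 7 and Acaca without experiment 4. With experiment as a block the adjusted p of Acaca was 0.0266 (limma), and it ranged over 0.0266 to 0.644 in the alternative settings.

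The step between Wnthigh and Wntlow cells was tested against the step between Wntlow and Wntnegative cells. Me1 and Elovl6 had steps that differed, Me1 by -1.52 (SE 0.35, limma adjusted p = 0.00694) and Elovl6 by -1.15 (SE 0.21, limma adjusted p = 0.00166). Among all genes 10.1% had a lower and 4.74% a higher step between Wnthigh and Wntlow cells, 5.41% and 1.69% by at least 1. Of the full Me1 difference between Wnthigh and Wntnegative cells, 20.3% lay between Wntlow and Wntnegative cells. The same share was 56.1% for Fasn, 52.3% for Acly and 51.1% for Fads2, whose steps did not pass the test (adjusted p = 0.814, 0.9 and 0.967, limma). Acaca, at 69.8%, did not pass either (adjusted p = 0.269). The steps of Me1 and Elovl6 did not pass without the run term or in experiments 2 to 5 alone.

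Within the Wnthigh and Wntlow groups most of the genes ranked the arrays alike. In Wnthigh cells 7 of the 9 genes stood in the order experiment 4, 5, 2 from high to low (13.1% of all genes did), and 8 stood in the order 9, 8, 7 (14.9%). In Wntlow cells 8 stood in the order 4, 5, 3 (17.6%) and 7 in the order 9, 8, 7 (11.4%). Elovl6 was an exception in every one of these sets. Of the 11 type II markers, 11 and 11 stood in these orders in Wnthigh cells (experiments 2 to 5 and 7 to 9), and 10 and 6 in Wntlow cells. Sftpc was the exception in Wntlow cells of experiments 3 to 5, and Sftpc, Sftpb, Sftpa1, Abca3 and Cxcl15 were in experiments 7 to 9. Lamp3, a lysosomal membrane protein of alveolar type II cells, followed all 4 orders, with 9.75, 15.10 and 12.20 in Wnthigh cells of experiments 2, 4 and 5, and 6.55, 9.40 and 11.39 in experiments 7, 8 and 9. In Wntlow cells of experiments 3, 4 and 5 Lamp3 read 14.08, 17.01 and 14.75, and in experiments 7, 8 and 9 it read 8.98, 13.39 and 15.01. In Wntnegative cells it kept to 17.24 to 17.99.

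The summed log2 level of the 11 type II markers spanned 134.4 to 178.7 and 125.5 to 164.0 in Wnthigh cells (experiments 2 to 5 and 7 to 9), 173.5 to 190.6 and 159.1 to 188.2 in Wntlow cells, and 192.7 to 193.1 and 200.3 to 203.5 in Wntnegative cells. All 11 were above the silent level on every array. In Wnthigh against Wntnegative cells 10 of the 11 were lower (24.6% of all genes were). In Wntlow against Wntnegative cells 4 of 11 were (13.2%), and in Wnthigh against Wntlow cells 5 of 11 were (16.4%). On all 6 Wntnegative arrays 9 of the 11 lay among the brightest 1% of genes, and 5 of them (Sftpc, Sftpb, Sftpa1, Slc34a2 and Cxcl15) did so on all Wntlow arrays too, so these counts and sums may understate their differences. The 6 measured ciliated markers ran the opposite way, with summed levels of 89.2 to 91.5 in Wnthigh, 57.3 to 84.8 in Wntlow and 26.4 to 44.0 in Wntnegative cells over both runs. Of the other lists in Wnthigh against Wntnegative cells, 6 of 7 type I markers were lower and 1 higher. Among goblet markers 1 of 6 was lower and 4 higher, and 2 of 6 immune markers were lower. None of 3 basal or 4 measured fibroblast markers passed. Of all genes 24.6% were lower and 15.6% higher in that comparison. The part of cell makeup in the differences of the 9 genes was not tested.

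**Figure D3:**
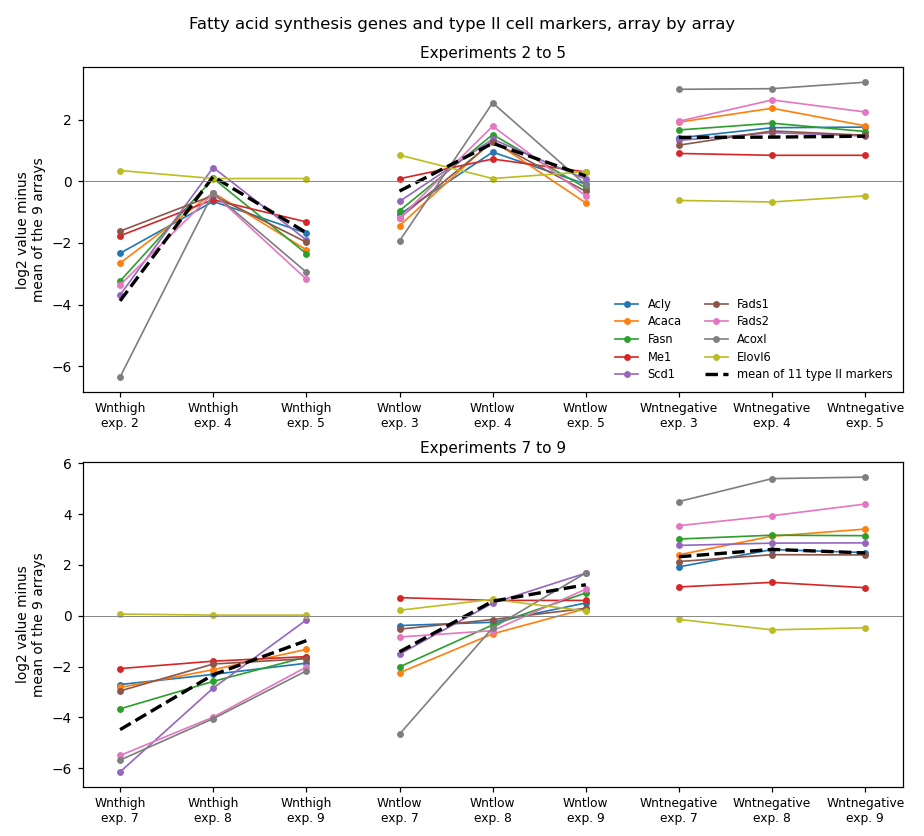
Log2 value minus the mean of the 9 arrays of the run (vertical axis) for the 9 genes (coloured lines) and for the mean of 11 type II markers (dashed line), by group and experiment. The Wnthigh and Wntlow arrays of experiments 4 and 9 stand highest within their group and run for most of the genes.

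Other enzymes of synthesis, elongation and desaturation were read from a list of 24 genes, of which 23 had a value. In Wnthigh against Wntnegative cells 13 were lower and 5 higher, with a median of -0.50. Of all genes 24.6% were lower and 15.6% higher. Elovl1, which elongates very long chains, averaged 10.81 ± 1.56 in Wnthigh and 14.58 ± 0.44 in Wntnegative cells (SD, n = 6 each), a difference of -3.78 (SE 0.49, limma adjusted p = 9.43e-06). Fads3, a relative of Fads1 and Fads2 in the same gene cluster, fell by 3.68 (SE 0.37, limma adjusted p = 6.13e-07). Hacd3, a dehydratase of the elongation cycle, fell by 3.16 (SE 0.23, limma adjusted p = 1.86e-08), and Elovl5, which lengthens polyunsaturated chains, fell by 2.31 (SE 0.21, limma adjusted p = 1.62e-07). Acacb, the mitochondrial form of the carboxylase, differed by -0.32 (SE 0.15, limma adjusted p = 0.094, and 0.0306 with experiment as a block). Fads3 in Wntlow cells, at 12.30 ± 0.51, was not distinguished from Wntnegative cells, at 12.64 ± 0.40 (SD, n = 6 each; limma adjusted p = 0.554).

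Of 16 genes that bring citrate, acetyl-CoA and NADPH, 13 had a value. In Wnthigh against Wntnegative cells 5 were lower and 2 higher. In Wntlow against Wntnegative cells 1 was lower and 9 were higher, with a median of 0.67, and in Wnthigh against Wntlow cells 9 were lower and 1 was higher. Slc25a1, the mitochondrial citrate carrier, fell by 2.13 in Wnthigh against Wntnegative cells (SE 0.24, limma adjusted p = 1.8e-06). Idh1, a cytosolic source of NADPH, fell by 1.84 in Wnthigh cells (SE 0.38, limma adjusted p = 0.000809) and was 1.56 higher in Wntlow cells (SE 0.38, limma adjusted p = 0.0057), each against Wntnegative cells. Me2, the mitochondrial malic enzyme, was 3.31 higher in Wnthigh cells (SE 0.27, limma adjusted p = 6.88e-08), while Me1 was lower.

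Among 17 measured genes of SREBP and LXR control, 9 were lower and 5 higher in Wnthigh against Wntnegative cells, with a median of -0.44. Insig1, which holds SREBP precursors in the endoplasmic reticulum and is itself a SREBP target, fell by 4.10 (SE 0.40, limma adjusted p = 4.73e-07). Cebpa, a transcription factor of lipogenic tissues, fell by 2.79 (SE 0.27, limma adjusted p = 3.82e-07), and Trib1 fell by 2.54 (SE 0.36, limma adjusted p = 2.15e-05). Srebf2, the paralogue of Srebf1 known for cholesterol synthesis, fell by 0.75 in Wnthigh (SE 0.19, limma adjusted p = 0.00504) and by 1.47 in Wntlow cells (SE 0.19, limma adjusted p = 5.28e-05), each against Wntnegative cells. Trib1 and Srebf2 did not pass between Wnthigh and Wntnegative cells without the run term (limma adjusted p = 0.0829 and 0.842).

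Activation and uptake had 9 lower and 3 higher among 18 measured genes in Wnthigh against Wntnegative cells, with a median of -0.22. Cd36, a fatty acid translocase, fell by 5.37 (SE 0.62, limma adjusted p = 2.33e-06). Acsl4, which activates long chains to CoA esters, fell by 5.13 (SE 0.51, limma adjusted p = 5.22e-07), and Fabp5, a fatty acid carrier, fell by 4.88 (SE 0.78, limma adjusted p = 8.18e-05). Oxidation had 10 lower and 8 higher among 26 measured genes, with a median of -0.16. Acox2, a peroxisomal oxidase of branched chains, averaged 10.86 ± 0.31 in Wnthigh and 5.43 ± 0.44 in Wntnegative cells (SD, n = 6 each), a difference of 5.44 (SE 0.26, limma adjusted p = 3.02e-09) opposite in sign to that of Acoxl. Ppargc1a, a coactivator of oxidative genes, was 1.81 higher (SE 0.17, limma adjusted p = 3.57e-07), and Etfa, which carries electrons out of oxidation, 1.76 higher (SE 0.16, limma adjusted p = 2.47e-07). In Wntlow against Wntnegative cells the other synthesis genes had 12 lower and 4 higher, the SREBP and LXR genes 8 and 4, activation and uptake 7 and 1, and oxidation 4 and 9. In Wnthigh against Wntlow cells the same lists had 8 lower and 4 higher, 5 and 5, 4 and 1, and 11 and 5. The medians over all genes were -0.05, -0.03 and -0.01 in the 3 comparisons, in the order Wnthigh against Wntnegative, Wntlow against Wntnegative and Wnthigh against Wntlow. In that order 24.6%, 13.2% and 16.4% of all genes were lower, and 15.6%, 12.3% and 11.4% higher. Shares near these hold for genes at large. In a fit limited to the 17946 genes above the silent level on at least 3 arrays, 6759, 3772 and 5169 were lower in that order. In the same fit 4629, 3883 and 3454 were higher, so the shares among these brighter genes were larger.

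**Figure D4:**
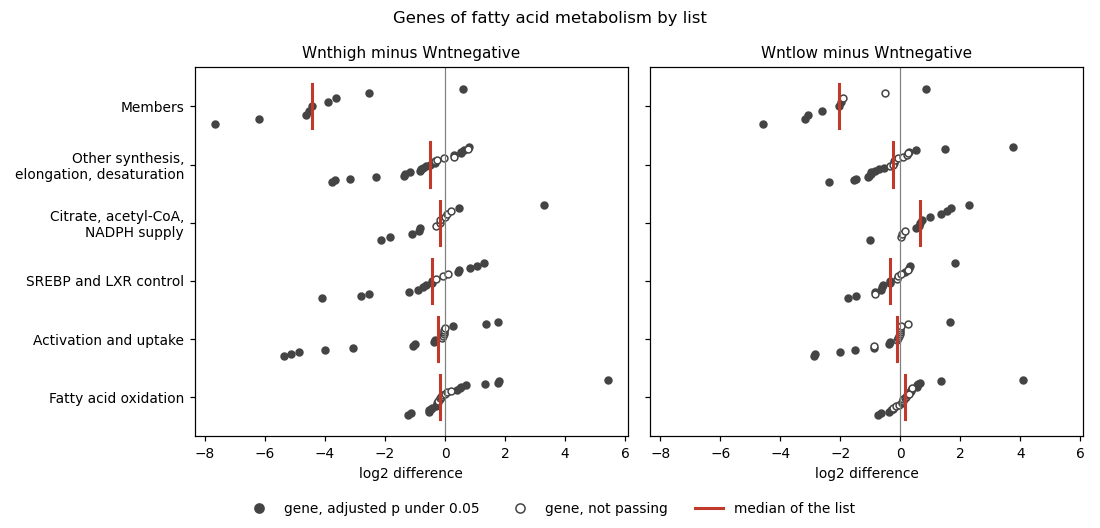
Log2 difference (horizontal axis) of each gene in the 9 measured members and 5 related lists, for Wnthigh minus Wntnegative and Wntlow minus Wntnegative, filled where the adjusted p is under 0.05, with a red bar at the median of the list. The median of the citrate, acetyl-CoA and NADPH list is -0.18 in the Wnthigh and 0.67 in the Wntlow comparison, while that of the members is -4.42 and -2.05.

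The genes whose pattern was closest to Fasn, Acoxl and Me1 were found among 19043 protein-coding genes by the root mean square difference of run-centred log2 values over the 18 arrays, which share groups, pools and runs. For Fasn, whose own root mean square was 2.17, these were Sparc (0.34), Adgrf5 (0.38), Cd81 (0.39), Adk (0.40) and Fabp5 (0.41). Acaca came at rank 7, with 0.44, and Elovl6 at rank 16656, with 2.44. For Acoxl, with 3.69 of its own, they were Egfl6 (0.40), Sgpp2 (0.51), Itih4 (0.60), Tinag (0.62) and Lamp3 (0.66). For Me1, with 1.15 of its own, they were Dram2 (0.08), Pon3 (0.17), Aco1 (0.18), Ell2 (0.20) and Cebpa (0.22). No other of the 9 genes was among the 5 closest to Fasn, Acoxl or Me1.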

How the data were processed

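Gene expression was measured on Affymetrix arrays with the WT Pico kit from 8 ng of total RNA, per the labels' protocols. The deposited values are log2 intensities of 72688 probe sets on 18 arrays (1.79 to 19.93), normalized by the authors with RMA, per the submitters' processing notes; no source used here names its version or a genome build. From 65956 probe sets that are not controls, 30604 carry 1 gene symbol, 2146 several and 33206 none in the platform annotation; for 355 genes with more than 1, the brightest on average was kept, giving 30142 genes, and 827 symbols were updated. Scd2, like Srebf1, has no probe set of its own. No annotation was used for coordinates other than the RefSeq windows.

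Groups came from the labels. Differences were fitted with limma 3.58.1 (R 4.3.3) as group plus run over all 18 arrays, and p-values were adjusted over all 30142 genes (threshold 0.05; a second count asks for a difference of at least 1). The labels mark an experiment number, so same-numbered arrays share an experiment. Over the 16 pairs, residuals correlated at 0.486 to 0.802 with the group removed and at -0.147 to 0.41 with group and run removed, 8 of them above 0.1. Alternatives were 20 settings per comparison. Array weights per group, leaving out the Wntlow arrays of experiments 3 and 4, and the comparison of steps were chosen after seeing the data. The genes, lists and markers were chosen with earlier results of these data known. Named genes were the 10 members, up to 3 genes per related list with the largest difference in size between Wnthigh and Wntnegative cells among those past the threshold, fixed paralogues, and the 5 closest genes of Fasn, Acoxl and Me1. The labels say that pools came from several animals but not that every pool was of different animals, so p-values measure the spread between these arrays. The number of arrays limits the precision.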

Additional observations from a re-analysis of the deposited data

Results flagged for a closer look

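Among 27 sets of 6 arrays (9 genes in 3 groups, centred by run), 1 had an array far from the other 5. For Elovl6 in Wnthigh cells the array of experiment 2, at 6.31, was above the arrays of experiments 4 and 5, at 6.05 and 6.05. Its gap to the nearest array was 0.807 of the whole range, above Dixon's 95% critical value for 6 arrays. Chance gives about 1 such set in 20.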

How the results depend on the processing

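In Wnthigh against Wntnegative cells 178 of the gene values under the alternatives kept direction and call and 2 lost the call, both Elovl6. The count of higher members was 0 in experiments 7 to 9 alone and 0 with no run term. Over all genes, against 7424 lower and 4716 higher, 4514 were lower in experiments 7 to 9 alone, and 1351 lower and 1473 higher with no run term. In Wntlow against Wntnegative cells 164 kept the call, 10 lost and 6 gained it. Members lower were 0 in experiments 2 to 5 alone and 3 with no run term, and members higher 0 with no run term. Over all genes, against 3982 lower and 3713 higher, 1102 were lower and 1430 higher in experiments 2 to 5 alone, 1964 lower in experiments 7 to 9 alone, and 221 lower and 840 higher with no run term. In Wnthigh against Wntlow cells 149 kept the call, 27 lost and 4 gained it. Members lower were 1 in experiments 2 to 5 alone and 1 with no run term, and over all genes, against 4951 lower and 3450 higher, 1843 were lower and 1448 higher in experiments 2 to 5 alone, and 630 lower and 721 higher with no run term. Leaving out 1 experiment at a time left 8, 6 to 7 and 4 to 7 lower members in the 3 comparisons. With the experiment as a replicate block the lower members were 8, 6 and 7, which changed no other member's call than that of Acaca in Wnthigh against Wntlow cells. Each run alone held 3 arrays a group. Why the counts moved was not tested. The comparison of steps, which did not pass for these genes, changed sign in experiments 2 to 5 alone for Acoxl (-0.49), Fads2 (-0.11) and Fasn (-0.34), with the replicate block for Fads2 (-0.04), without experiment 3 for Fads2 (-0.14), Fads1 (-0.01) and Acly (-0.13), and without experiment 8 for Fads2 (-0.07). Leaving out 1 experiment at a time gave -0.14 to 0.42 for Fads2, -0.01 to 0.65 for Fads1 and -0.13 to 0.38 for Acly. Signals near the top of the scale may limit the size of the differences of Fasn and Scd1, which was not tested.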

Other observations

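Some genes next to fatty acid synthesis peaked in Wntlow cells. They were chosen after their values were seen. Hacd4, a dehydratase of the elongation cycle, averaged 4.72 ± 0.96 in Wnthigh, 7.69 ± 0.54 in Wntlow and 3.94 ± 0.56 in Wntnegative cells (SD, n = 6 each). It was not above the silent level on any of the 6 Wntnegative arrays, so it was at least 9.92-fold higher in Wntlow cells, taking the silent level there (limma adjusted p = 6.03e-07). Pcx, the pyruvate carboxylase that feeds citrate formation, averaged 10.92 ± 0.61 in Wntlow cells, against 8.63 ± 0.85 in Wntnegative cells (SD, n = 6 each), a difference of 2.29 (SE 0.39, limma adjusted p = 0.000361). Acss2, the cytosolic acetate-activating enzyme, fell by 1.82 in Wnthigh against Wntlow cells (SE 0.25, limma adjusted p = 3.1e-05) and was 0.98 higher in Wntlow than in Wntnegative cells (SE 0.25, limma adjusted p = 0.00709). All 6 goblet markers were lower in Wnthigh than in Wntlow cells (limma, 16.4% of all genes were). All 6 were also higher in Wntlow than in Wntnegative cells (limma, 12.3% of all genes were). Their mean levels in experiments 2 to 5 were 6.49 to 9.85 in Wnthigh, 10.78 to 11.44 in Wntlow and 4.96 to 5.34 in Wntnegative cells, and in experiments 7 to 9 they were 6.71 to 6.89, 11.21 to 12.40 and 4.12 to 4.41 in the same order of groups. Mean club marker levels in experiments 7 to 9 were 17.72 to 17.89 in Wnthigh, 18.38 to 18.74 in Wntlow and 12.71 to 14.50 in Wntnegative cells. In experiments 2 to 5 they were 16.27 to 17.38, 17.25 to 17.85 and 12.90 to 13.56, so Wnthigh and Wntlow arrays overlapped there. Of the 4 measured club markers, 2 were lower in Wnthigh than in Wntlow cells. The part of these cell types in the values was not tested.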
